A study of Mus musculus with 27 samples.

Results

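The miR-181 family of the mouse comprises the microRNAs miR-181a, miR-181b, miR-181c and miR-181d. Its members were taken by name from the deposited table of small RNAs, and every genomic copy and every mature arm was kept as an entry of its own. This gave 11 of the table's 1013 entries, and 11 of its 483 miRNA entries. They are 2 entries of mmu-miR-181a-5p, 2 of mmu-miR-181b-5p, and 1 each of mmu-miR-181c-5p, mmu-miR-181d-5p, mmu-miR-181a-1-3p, mmu-miR-181a-2-3p, mmu-miR-181b-1-3p, mmu-miR-181b-2-3p and mmu-miR-181c-3p, written below without the species prefix. The 3p arm of miR-181d was not analysed here.

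The study followed small RNAs through subcellular fractions of mouse cells at 3 stages of neural differentiation. mESC stands for E14 mouse embryonic stem cells, kept on gelatin with LIF. mNPC is a single neural progenitor line made in the depositing laboratory and grown in B27 medium with EGF and FGF, and mCtx are primary cortical neurons cultured for 5 days. Chromatin, soluble nucleoplasm and cytoplasm of each were read in 3 libraries, which makes 27 libraries in 9 groups. All groups were size-selected for RNA below 200 nt and depleted of rRNA, and no group carried a genetic change. Whether the 3 libraries of a group, named biological replicates, came from separate cultures is not given in the sources used here. If they did not, the p-values measure technical spread.

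A microRNA hairpin is cut by Dicer into a duplex whose strands are called the 5p and the 3p arm, after the side of the hairpin that they come from. Usually one arm is kept in an Argonaute protein and guides it to mRNAs that pair with the seed, a short stretch near the 5′ end of the microRNA. miR-181 microRNAs are abundant in brain and in developing lymphocytes, and in thymocytes miR-181a is known to set the sensitivity of T cell receptor signalling.

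The mature sequences show which members can pair with the same targets and which can be told apart by their reads. They are RefSeq sequences of the mouse build GRCm38.p6, which held all 11 entries, printed 5′ to 3′ with the seed, bases 2 to 8, in capitals.
miR-181a-5p: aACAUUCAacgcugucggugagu
miR-181b-5p: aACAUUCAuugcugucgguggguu
miR-181c-5p: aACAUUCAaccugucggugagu
miR-181d-5p: aACAUUCAuuguugucggugggu
miR-181a-1-3p: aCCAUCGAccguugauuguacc
miR-181c-3p: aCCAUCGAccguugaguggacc
miR-181a-2-3p: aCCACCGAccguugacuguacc
miR-181b-1-3p: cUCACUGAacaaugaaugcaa
miR-181b-2-3p: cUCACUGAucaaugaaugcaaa

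All 5p arms share the seed ACAUUCA, which 6 of the 1738 mature mouse sequences in the RefSeq table hold, none of them outside the family. The 3p arms split into 3 seeds: CCAUCGA in miR-181a-1-3p and miR-181c-3p, CCACCGA in miR-181a-2-3p, and UCACUGA in both miR-181b 3p arms. Counted from 1 at the 5′ end, miR-181b-5p differs from miR-181a-5p by A9U, C10U and A21G, and miR-181d-5p differs from miR-181b-5p by C12U. miR-181b-5p also has 24 bases, ending in a U beyond the 23 bases of miR-181a-5p and miR-181d-5p. miR-181c-5p is miR-181a-5p without the G at position 11. The 3p arms of the miR-181a copies differ by U5C, within the seed, and by U16C.

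The family lies at 3 places in the genome, given here as the table lists the arms, on coordinates that match GRCm38. On chromosome 1, plus strand, miR-181a-5p spans chr1:137966468-137966490, miR-181a-1-3p chr1:137966508-137966529, miR-181b-5p chr1:137966650-137966672 and miR-181b-1-3p chr1:137966690-137966708. Mir181a-1 and Mir181b-1 lie in an intron of the processed transcript Gm4258 and opposite an intron of the lincRNA Gm26936, and Mir181b-1 lies in an exon of the lincRNA A430106G13Rik. On chromosome 2, plus strand, miR-181a-5p spans chr2:38852741-38852763, miR-181a-2-3p chr2:38852788-38852809, miR-181b-5p chr2:38853845-38853867 and miR-181b-2-3p chr2:38853883-38853904. Both hairpins lie opposite an intron of Nr6a1, an orphan nuclear receptor gene on the minus strand. On chromosome 8, minus strand, miR-181d-5p spans chr8:84178759-84178781, miR-181c-3p chr8:84178885-84178906 and miR-181c-5p chr8:84178924-84178945, within an intron of Nanos3, a germ cell gene on the same strand. The listed miR-181b-5p ends 1 base, and miR-181b-1-3p 2 bases, before the RefSeq arm, and the listed miR-181a-2-3p is shifted by 3 bases.

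The miR-181a hairpins show why reads of the 5p arm cannot be assigned to a chromosome while reads of the 3p arms can. Both arms are in capitals.
Mir181a-1: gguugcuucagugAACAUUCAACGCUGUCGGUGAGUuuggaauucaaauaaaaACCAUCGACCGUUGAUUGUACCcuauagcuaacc
Mir181a-2: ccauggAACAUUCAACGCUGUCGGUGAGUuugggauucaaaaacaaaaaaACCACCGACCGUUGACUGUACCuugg

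The values of the identical 5p arms behaved as shared reads. Across the 24 libraries that listed miR-181a-5p, the chromosome 2 entry was 0.992 to 1 times the chromosome 1 entry. For miR-181b-5p this ratio was 1.026 to 1.041 in mNPC and mCtx libraries and 1.58 to 2.13 in mESC nucleoplasm. Levels of miR-181a-5p and miR-181b-5p are given below as the sum of both copies, and the chromosome of origin of these reads cannot be read from the table.

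Values are RPM, reads of an entry scaled by the authors to one common library size. Each library had a lowest listed value, between 5.16 and 59.07 RPM, and everything below it stood at 0, so a 0 is not read as absence. Pearson's r of log2(RPM + 1) between replicates, across entries, which are not independent, was 0.817 to 0.965. The cell labels were checked against microRNA lists. The 17 entries of stem cell microRNAs summed to 19861 to 93945 RPM in mESC libraries and stood at 0 in every mNPC and mCtx library. Neuronal microRNAs summed to 17427 to 49853 RPM in mCtx libraries, at most 1680 RPM in mNPC libraries and at most 976.7 RPM in mESC libraries. Glial microRNAs reached at most 288 RPM in mNPC libraries, 101.4 RPM in mCtx libraries and 0 in mESC libraries. microRNAs of microglia and blood reached 4016 RPM in mESC libraries, 29.24 RPM in mNPC libraries and 44.5 RPM in mCtx libraries, and those of endothelium and mesenchyme reached 7594, 344.5 and 4099 RPM in the same order. The part of such cells in the results below was not tested.

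Neural cells carried far more miR-181 than stem cells, and mostly another pair of members. The family made up 28.5% to 41.5% of the listed miRNA RPM in mCtx libraries, 10.8% to 24.9% in mNPC libraries and 2.73% to 3.75% in mESC libraries. These ranges do not overlap. In mESC libraries 76.9% to 86.5% of the family's 5p RPM belonged to miR-181c-5p and 12.7% to 23.1% to miR-181d-5p. In mNPC libraries miR-181a-5p held 66% to 81.9% and miR-181b-5p 14% to 28.5% of it. In mCtx libraries miR-181a-5p alone held 84.7% to 90.4%, with miR-181b-5p at 5.01% to 11.8%. In bulk samples, fewer cells of a type and less RNA per cell cannot be told apart.

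**Figure D1:**
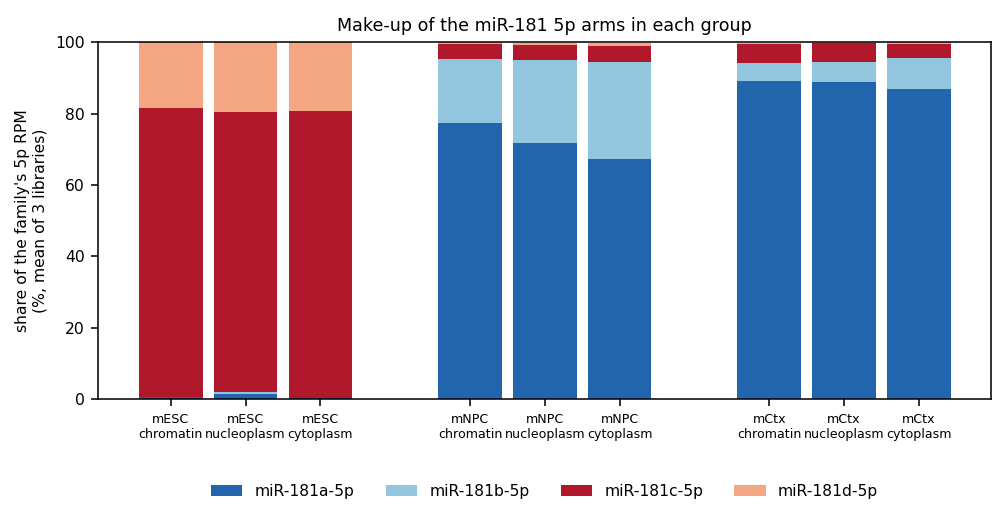
Share of each 5p arm (vertical axis, percent of the summed 5p RPM of the family, mean of 3 libraries) in each cell type and fraction (horizontal axis). mESC bars are mostly miR-181c-5p and miR-181d-5p, mNPC bars miR-181a-5p with miR-181b-5p, and mCtx bars miR-181a-5p at group means of 87% to 89.1%.

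miR-181a-5p was the most abundant microRNA name in 9 of 9 mCtx libraries and in 5 of 9 mNPC libraries. In chromatin its level was 171712, 190368 and 205385 RPM in mCtx libraries, against 75592, 60518 and 93833 RPM in mNPC libraries. In nucleoplasm it was 247669, 275055 and 337586 RPM in mCtx libraries, against 78706, 102778 and 119698 RPM in mNPC libraries. In cytoplasm it was 205576, 231535 and 234166 RPM in mCtx libraries, against 62869, 78300 and 76105 RPM in mNPC libraries. Every mCtx library lay above every mNPC library of its fraction. mESC libraries stood far below both: 162.7, 0 and 0 RPM in chromatin, 583.6, 222.5 and 121.5 RPM in nucleoplasm, and 140.5, 0 and 72.41 RPM in cytoplasm.

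The mCtx level of miR-181a-5p was 1.49 higher than the mNPC level on the log2 RPM scale, averaged over fractions, with groups that did not overlap in 3 of 3 fractions. An exact permutation test, two-sided, that exchanged libraries within a fraction gave p = 0.00025, the smallest that its 8000 assignments allow, and 0.00131 after Benjamini-Hochberg adjustment over the 21 tests of this kind chosen after the data had been seen. If the fractions of a cell type share cultures, tests that pool them understate p. The limma fit of all 27 libraries gave log2(RPM + 1) differences of 1.32 in chromatin, 1.52 in nucleoplasm and 1.63 in cytoplasm (SE 1.34), none past the threshold of an adjusted p of 0.05. In a fit of the mNPC and mCtx libraries alone, also chosen after seeing the data, the same differences had an SE of 0.18 and limma adjusted p-values of 3.35e-05, 6.62e-06 and 3.31e-06. The differences turned to -2.13, -2.96 and -1.11 when each library was centred to one median over the tested entries, an alternative that shifted the median difference of a contrast by -4.49 to 5.67. That median depends on how many entries a library lists. mNPC libraries listed 288 to 431 entries and mCtx libraries 383 to 576, beside 851 tested. In the libraries that listed the fewest, the median was itself a value of 0.

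Against mESC, miR-181a-5p passed in all 3 fractions, with mNPC minus mESC differences of 13.08 in chromatin, 8.61 in nucleoplasm and 11.35 in cytoplasm (limma adjusted p of 5.13e-08, 1.53e-05 and 4.57e-07). The size of these differences depends on the pseudocount of 1 RPM wherever an mESC library stood at 0.

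**Figure D2:**
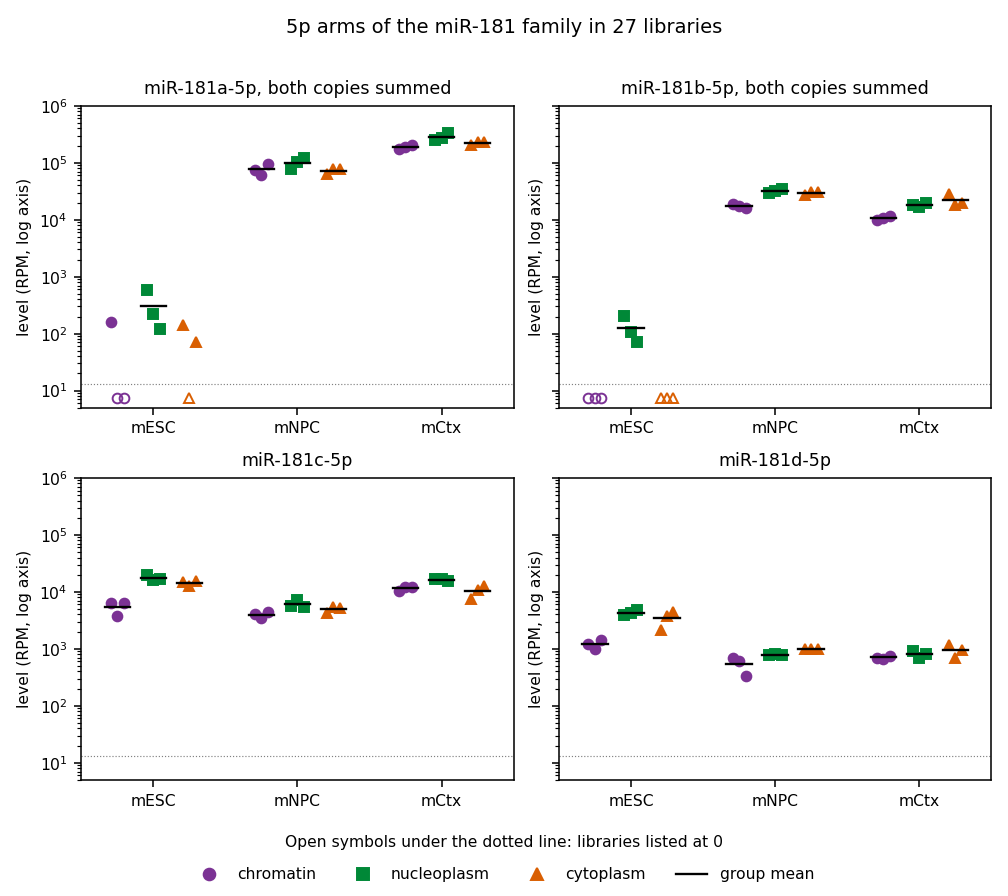
Level of each 5p arm (vertical axis, RPM, log scale) in every library, by cell type (horizontal axis) and fraction (colour and shape), with the mean of 3 libraries as a line where none stood at 0. miR-181a-5p and miR-181b-5p stay at or under 583.6 RPM in mESC libraries, whereas miR-181c-5p lies between 3485 and 19380 RPM throughout.

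miR-181b-5p, made from hairpins beside those of miR-181a, was also far higher in the neural cells than in stem cells but did not share the higher level of miR-181a-5p in neurons. In chromatin it had 10069, 10731 and 11586 RPM in mCtx libraries, against 19181, 17186 and 16093 RPM in mNPC libraries. In nucleoplasm it had 18061, 16896 and 19816 RPM in mCtx libraries, against 29931, 31879 and 34466 RPM in mNPC libraries. In cytoplasm it had 28658, 18021 and 19677 RPM in mCtx libraries, against 27193, 30688 and 30282 RPM in mNPC libraries. mCtx libraries lay below mNPC libraries without overlap in chromatin and nucleoplasm, and overlapped with them in cytoplasm. In mESC it stood at 0 in all chromatin and cytoplasm libraries and at 202.4, 105.8 and 70.82 RPM in nucleoplasm.

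The nucleoplasm difference of mCtx minus mNPC passed for both copies of miR-181b-5p, at -0.81 for the chromosome 1 entry and -0.82 for the chromosome 2 entry (limma adjusted p = 0.0222 and 0.00626). In chromatin the differences were -0.69 and -0.70, and only the chromosome 2 entry passed (limma adjusted p = 0.059 and 0.0234). In cytoplasm they were -0.43 and -0.45, and neither passed. The nucleoplasm call of the chromosome 1 entry was lost without mNPC nucleoplasm replicate 2 or 3 or mCtx nucleoplasm replicate 1 or 2, and the chromatin call of the chromosome 2 entry without mNPC or mCtx chromatin replicate 1 or 2 (limma adjusted p up to 0.0713 and 0.0807). Scaled to the reads outside miR-181a-5p, an alternative chosen after seeing the data, both entries shrank, to -0.50 and -0.51 in chromatin, to -0.47 and -0.48 for nucleoplasm and to -0.17 and -0.19 for cytoplasm, and none of these passed (limma adjusted p of 0.108 to 0.956). With mNPC and mCtx libraries alone the chromosome 1 entry passed in all 3 fractions, with limma adjusted p-values of 0.00145 in chromatin, 0.000329 in nucleoplasm and 0.0253 in cytoplasm.

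The ratio of miR-181a-5p to miR-181b-5p does not depend on how a library is scaled. It was 17.5 ± 0.393 in mCtx chromatin, 15.7 ± 1.74 in nucleoplasm and 10.6 ± 3.04 in cytoplasm, against 4.43 ± 1.23, 3.11 ± 0.433 and 2.46 ± 0.129 in the same fractions of mNPC (SD, n = 3). The lowest mCtx library, at 7.17, was above the highest mNPC library, at 5.83. The log2 ratio was 2.14 higher in mCtx, without overlap in 3 of 3 fractions (exact permutation adjusted p = 0.00131). In mESC the ratio could be formed in nucleoplasm alone, where it was 2.23 ± 0.595, and mNPC minus mESC was 0.50 there (exact permutation p = 0.2, where 3 against 3 libraries allow no p below 0.1). Replicate 1 of mCtx cytoplasm stood apart in several members, with a ratio of 7.17 beside 11.9 and 12.8, and without it the mCtx minus mNPC difference was 2.23 (exact permutation adjusted p = 0.00105).

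miR-181c-5p and miR-181d-5p, which share an intron of Nanos3, were listed in all 27 libraries and followed another course. miR-181c-5p had 3996 ± 455 RPM in mNPC chromatin, against 5480 ± 1542 RPM in mESC chromatin. In nucleoplasm it had 6048 ± 929 RPM in mNPC, against 17227 ± 1890 RPM in mESC, and in cytoplasm 4913 ± 611 RPM in mNPC, against 14238 ± 1541 RPM in mESC (SD, n = 3). The mNPC libraries lay below every mESC library in nucleoplasm and cytoplasm and overlapped with them in chromatin. The log2 differences were -0.42 in chromatin, which did not pass, and -1.52 and -1.54 in nucleoplasm and cytoplasm (limma adjusted p = 0.101, 1.81e-06 and 1.47e-06), the last of which turned to 0.23 and the one before it to 4.16 under centring. Scaled to the listed miRNA reads, the chromatin difference passed as well, at -1.78 (limma adjusted p = 4.25e-08).

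In neurons the RPM of miR-181c-5p were above those of progenitors again. It had 11556 ± 996 RPM in mCtx chromatin, 16251 ± 817 RPM in mCtx nucleoplasm and 10372 ± 2783 RPM in mCtx cytoplasm (SD, n = 3), above every mNPC library of the same fraction. The mCtx minus mNPC differences of 1.53, 1.44 and 1.05 passed in chromatin, nucleoplasm and cytoplasm (limma adjusted p of 2.79e-06, 6.67e-06 and 2.62e-04), and turned to -1.92, -3.05 and -1.69 under centring. Against mESC, mCtx was higher by 1.12 in chromatin (limma adjusted p = 6.55e-05), a difference of -0.43 when scaled to miRNA reads, while -0.08 in nucleoplasm and -0.49 in cytoplasm did not pass (limma adjusted p = 0.805 and 0.0518).

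miR-181d-5p had lower RPM in progenitors and neurons than in stem cells. In mCtx it had 708.5 ± 40.2 RPM in chromatin, 809 ± 121 RPM in nucleoplasm and 937.8 ± 251 RPM in cytoplasm. In mNPC it had 538.3 ± 186, 785.4 ± 26.6 and 979.1 ± 8.64 RPM in these fractions, against 1223 ± 209, 4257 ± 430 and 3428 ± 1133 RPM in mESC (SD, n = 3). No mNPC or mCtx library reached the lowest mESC library of its fraction. The mNPC minus mESC differences were -1.24, -2.43 and -1.75, and all passed (limma adjusted p of 4.06e-04, 8.17e-08 and 7.86e-06 in chromatin, nucleoplasm and cytoplasm), but stood at 3.09, 3.24 and 0.02 under centring. The mCtx minus mESC differences of -0.77, -2.40 and -1.84 passed too (limma adjusted p of 0.0152, 1.07e-07 and 4.21e-06), the chromatin one not without mESC chromatin replicate 3 (limma adjusted p = 0.0689), at -0.47 when scaled to the reads outside miR-181a-5p (limma adjusted p = 0.135) and at 0.09 under centring. Between mCtx and mNPC none of its differences, 0.46, 0.03 and -0.10, passed.

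miR-181c-5p therefore outweighed miR-181d-5p more in neurons than in the other cells. The ratio of miR-181c-5p to miR-181d-5p was 16.3 ± 1.66 in mCtx chromatin, 20.4 ± 3.76 in nucleoplasm and 11.9 ± 5.03 in cytoplasm, against 8.38 ± 4.26, 7.68 ± 0.908 and 5.02 ± 0.615 in mNPC. In mESC it was 4.43 ± 0.747, 4.1 ± 0.826 and 4.57 ± 1.97 (SD, n = 3). The log2 ratio was 1.21 higher in mCtx than in mNPC, without overlap in 3 of 3 fractions (exact permutation adjusted p = 0.00131). It was 0.65 higher in mNPC than in mESC (exact permutation adjusted p = 0.011), with no overlap in 2 of 3 fractions. This call was lost with libraries paired by replicate number (exact permutation adjusted p = 0.0597). mNPC chromatin replicate 3, at 13.3 beside 5.74 and 6.09, and mCtx cytoplasm replicate 1, at 6.24 beside 13.6 and 15.8, were farthest from their groups.

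The 3p arms of miR-181a and miR-181b were scarce and were listed in neural cells alone. miR-181a-1-3p, from chromosome 1, stood at 0 in all 9 mESC libraries. It had 188.3 ± 50.3, 372.6 ± 111 and 470.8 ± 102 RPM in chromatin, nucleoplasm and cytoplasm of mCtx, against 248.3 ± 166, 298.5 ± 65.9 and 667.4 ± 95.4 RPM in the same fractions of mNPC (SD, n = 3). Its mCtx minus mNPC differences of -0.23, 0.30 and -0.52 did not pass. miR-181b-2-3p was above 0 in 1 of 27 libraries, an mNPC cytoplasm library with 28.24 RPM, and was the one member not tested, since testing needed at least 1 RPM in at least 3 libraries.

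**Figure D3:**
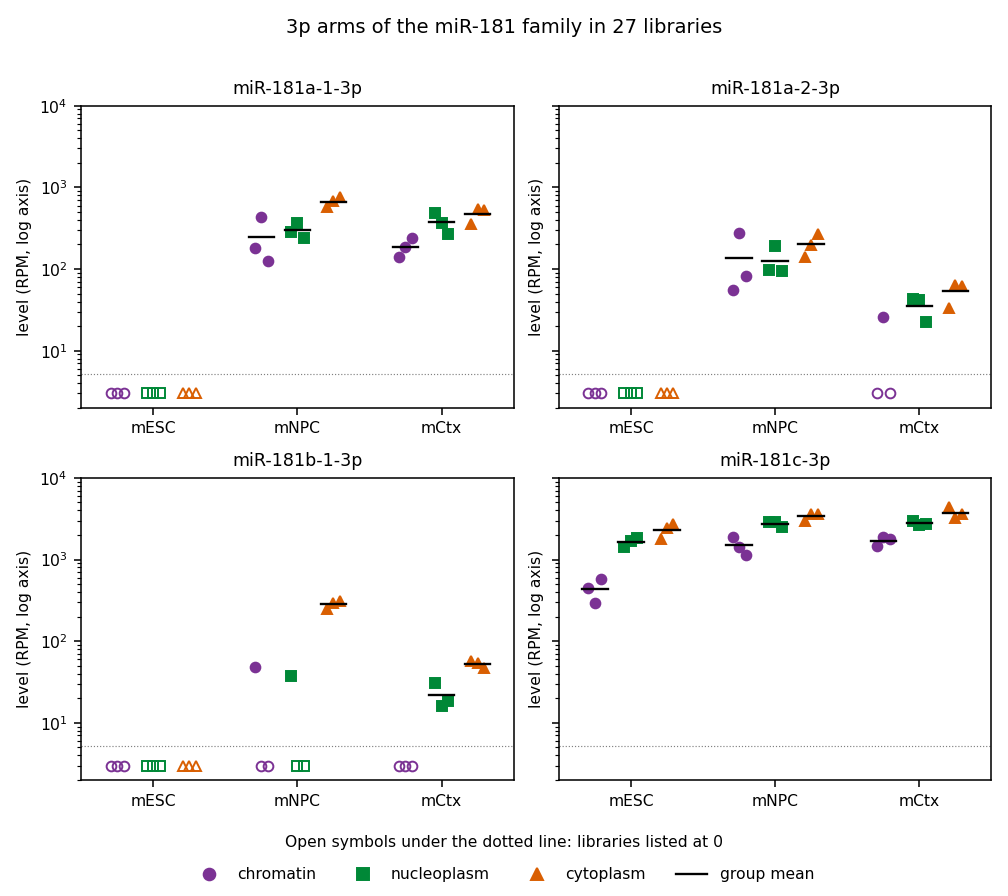
Level of the 3p arms (vertical axis, RPM, log scale) in every library, by cell type (horizontal axis) and fraction (colour and shape), with open symbols for libraries listed at 0. The miR-181a and miR-181b 3p arms stay under 760 RPM and are at 0 in all mESC libraries, while miR-181c-3p lies between 293.7 and 4369 RPM.

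miR-181a-2-3p, the arm that marks the chromosome 2 hairpin, had lower RPM in mCtx than in mNPC libraries, by a limma call in chromatin alone. In nucleoplasm it had 42.53, 41.42 and 22.19 RPM in mCtx libraries, against 97.13, 190.4 and 93.54 RPM in mNPC libraries. In cytoplasm it had 33.54, 63.78 and 62.14 RPM in mCtx libraries, against 140.6, 197.7 and 268.1 RPM in mNPC libraries. In chromatin it had 0, 25.87 and 0 RPM in mCtx libraries, against 55.21, 272.8 and 82.69 RPM in mNPC libraries. The groups did not overlap in any fraction, yet 1 of the 3 limma differences passed, that of chromatin at -5.18 (adjusted p = 5.69e-05), which was -0.89 and did not pass when all values below the highest library floor were set to that floor (limma adjusted p = 0.0864). The differences in nucleoplasm and cytoplasm were -1.79 and -1.91 (limma adjusted p = 0.129 and 0.0983), and the one in cytoplasm was -1.65 and passed with the common floor (limma adjusted p = 0.00147).

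Set against each other, the chromosome 1 arm gained on the chromosome 2 arm. The ratio of miR-181a-1-3p to miR-181a-2-3p was 10.7 ± 1.72 in mCtx nucleoplasm and 9.12 ± 1.22 in mCtx cytoplasm, against 2.48 ± 0.518 and 3.43 ± 0.608 in the same fractions of mNPC (SD, n = 3). The log2 ratio was 1.77 higher in mCtx over these 2 fractions, with no overlap in either (exact permutation p = 0.005, the smallest its 400 assignments allow, adjusted 0.011). With libraries paired by replicate number the call was lost (exact permutation adjusted p = 0.0597, where no p below 0.0312 is possible). In chromatin the ratio was 2.14 ± 1.02 in mNPC and could be formed in 1 mCtx library. The reads of the 3p arms give no share of the 5p arm by chromosome, since the strand balance of each hairpin was not measured.

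miR-181a-5p was 386 to 1232 times its summed 3p arms in mCtx libraries and 74.1 to 454 times in mNPC libraries. The log2 ratio was 2.02 higher in mCtx, without overlap in 3 of 3 fractions (exact permutation adjusted p = 0.00131). miR-181b-1-3p had 57.76, 54.01 and 47.02 RPM in mCtx cytoplasm, against 247.4, 296.5 and 308.7 RPM in mNPC cytoplasm, without overlap. Its difference of -2.40 did not pass (limma adjusted p = 0.143).

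miR-181c is the member with both arms in every library, and its arm balance differed between the cell types and between the fractions. In mESC the 5p arm was 12.6 ± 1.44 times the 3p arm in chromatin, 10.7 ± 2.58 times in nucleoplasm and 6.39 ± 1.75 times in cytoplasm. In mNPC the same ratios were 2.82 ± 0.892, 2.2 ± 0.249 and 1.45 ± 0.0471, and in mCtx 6.81 ± 0.347, 5.83 ± 0.44 and 2.86 ± 1.01 (SD, n = 3). Progenitors thus had the lowest ratio in every fraction, and neurons lay between them and stem cells. No mNPC library overlapped with an mESC or mCtx library of its fraction, and no mCtx library with an mESC library.

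The log2 ratio of the miR-181c arms was -2.19 for mNPC minus mESC, 1.21 for mCtx minus mNPC and -0.98 for mCtx minus mESC. Each had an exact permutation p of 0.00025, the smallest that 8000 assignments allow, and 0.0003 after adjustment over 6 tests. Between fractions the log2 ratio was 1.08 higher in chromatin than in cytoplasm and 0.82 higher in nucleoplasm than in cytoplasm, with groups apart in 3 of 3 cell types (adjusted p = 0.0003 by exact permutation for both). Chromatin exceeded nucleoplasm by 0.27, with groups apart in 1 of 3 cell types (adjusted p = 0.0218 by exact permutation), and this call was lost without mESC chromatin replicate 1, mESC nucleoplasm replicate 3 or mNPC nucleoplasm replicate 1 (differences of 0.24, 0.23 and 0.24). Replicate 1 of mCtx cytoplasm had a ratio of 1.69 beside 3.35 and 3.53, and without it the difference was 0.97 between chromatin and cytoplasm and 1.32 between mCtx and mNPC, both at an exact permutation adjusted p of 0.0003.

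**Figure D4:**
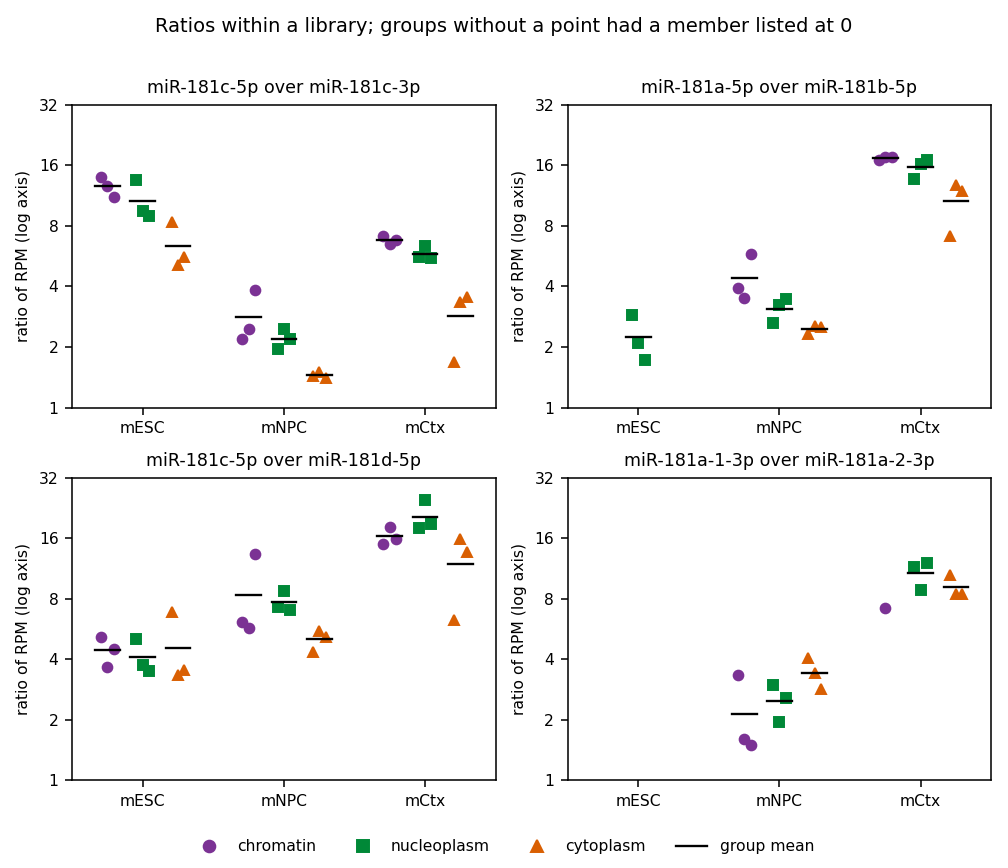
Ratios of RPM within a library (vertical axis, log scale) by cell type (horizontal axis) and fraction (colour and shape), with lines for means of 3 libraries. The miR-181c arm ratio is lowest in mNPC, between 1.41 and 3.84, and within each cell type lies lowest in cytoplasm, whereas the ratios of miR-181a-5p to miR-181b-5p and of miR-181a-1-3p to miR-181a-2-3p are highest in mCtx.

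The arms of miR-181c contributed unequally to that ratio. In mNPC minus mESC, where the 5p arm had lower RPM in nucleoplasm and cytoplasm, miR-181c-3p had higher RPM. It had 1485 ± 385 RPM in mNPC chromatin, 2742 ± 226 RPM in nucleoplasm and 3389 ± 388 RPM in cytoplasm, against 439.6 ± 141 and 2311 ± 497 RPM in mESC chromatin and cytoplasm (SD, n = 3) and 1421 to 1846 RPM in mESC nucleoplasm, with no overlap in any fraction. The differences were 1.78, 0.74 and 0.57 (limma adjusted p of 7.45e-07, 0.00775 and 0.0433), of which that in cytoplasm was lost in 13 of 27 fits that left out 1 library (limma adjusted p of 0.0177 to 0.239). Scaled to miRNA reads they were 0.42, 0.36 and 0.19, and none passed (limma adjusted p of 0.0526, 0.0913 and 0.468). In mCtx minus mNPC, where the 5p arm was higher, the 3p arm had 1703 ± 227, 2791 ± 150 and 3750 ± 577 RPM in mCtx, and differences of 0.22, 0.03 and 0.14 that did not pass. In mCtx minus mESC the 3p arm differed by 2.00, 0.77 and 0.71 (limma adjusted p of 1.51e-07, 0.00579 and 0.0114), the last of which was -0.26 under centring and was lost without replicate 1 of mESC or of mCtx cytoplasm (limma adjusted p up to 0.08). Scaled to miRNA reads these differences were 0.45, 0.38 and 0.41, and only that in chromatin passed (limma adjusted p of 0.0314, 0.0702 and 0.0598).

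Counted by entry, 7 of the 10 tested members were higher and 1 was lower in mNPC than in mESC chromatin, where 15.9% of all 851 tested entries were higher and 29% lower. In nucleoplasm 7 members were higher and 2 lower (12.8% and 35.8% of all entries), and in cytoplasm 8 were higher and 2 lower (14.1% and 27.5%). Between mCtx and mNPC 1 was higher and 2 were lower in chromatin (16% and 11.9%), 1 was higher and 2 were lower in nucleoplasm (23.5% and 10.3%), and 1 was higher and 0 were lower in cytoplasm (21.5% and 10.8%). Neither copy of miR-181a-5p was among these calls, with an SE of 1.34 in that fit. Between mCtx and mESC 7 were higher and 1 was lower in chromatin (22.8% and 29.3%), 8 were higher and 1 was lower in nucleoplasm (20.9% and 31.3%), and the same numbers held in cytoplasm (21% and 24.4%). Members at 0 in mESC passed the filter through the neural libraries, so these counts describe the members and support nothing further. The 2 copies of miR-181a-5p and of miR-181b-5p behaved as shared reads but count as separate entries. With same-named entries summed, 36 calls between cell types were higher and 11 lower, against 48 and 12. The median log2 difference of the 10 members was 7.26, 7.35 and 8.76 for mNPC minus mESC in chromatin, nucleoplasm and cytoplasm, where the median of all tested entries was 0, -1.2 and 0.

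Between fractions the members differed in their RPM, which are relative to the other small RNAs of the same fraction and give no share of a member's molecules on chromatin. miR-181c-3p was lower in chromatin than in cytoplasm in every cell type, with differences of -2.42 for stem cells, -1.22 for progenitors and -1.14 for neurons (limma adjusted p of 1.1e-08, 1.29e-04 and 2.38e-04). miR-181c-5p was lower in chromatin in mESC, at -1.42 (limma adjusted p = 3.61e-06), and did not pass in mNPC, at -0.30, or in mCtx, at 0.19. miR-181d-5p was lower in chromatin in mESC, at -1.44, and in mNPC, at -0.93 (limma adjusted p = 6.44e-05 and 0.00651), a call that was lost in mNPC without mNPC chromatin replicate 3 (limma adjusted p = 0.0605), and did not pass in mCtx, at -0.37.

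The miR-181a and miR-181b arms can be compared between fractions in mNPC and mCtx. miR-181b-5p had 17486 ± 1566 RPM in chromatin and 29388 ± 1912 RPM in cytoplasm of mNPC, and 10796 ± 760 RPM in chromatin and 22119 ± 5724 RPM in cytoplasm of mCtx (SD, n = 3), without overlap in either. The differences of its chromosome 1 entry were -0.75 and -1.01 (limma adjusted p = 0.0303 and 0.00356), and that in mNPC was lost without replicate 2 or 3 of mNPC chromatin or of mNPC cytoplasm (limma adjusted p up to 0.0929), but held for the chromosome 2 entry, at -0.75 (limma adjusted p = 0.0107). miR-181a-5p had 76648 ± 16683 RPM in chromatin and 72425 ± 8348 RPM in cytoplasm of mNPC, and 189155 ± 16869 RPM in chromatin and 223759 ± 15802 RPM in cytoplasm of mCtx, with differences of 0.07 and -0.24 that did not pass. Their SE was 1.34, in a fit that includes mESC libraries at 0, so they cannot show equal levels. The mCtx groups did not overlap, at up to 205385 RPM in chromatin and at least 205576 RPM in cytoplasm, while the mNPC groups did. miR-181a-1-3p was lower in chromatin than in cytoplasm, with differences of -1.62 for mNPC and -1.33 for mCtx (0.00103 and 0.00432 as limma adjusted p). miR-181b-1-3p was listed in 1 of 3 mNPC chromatin libraries, at 48.72 RPM, and in no mCtx chromatin library, against 3 of 3 cytoplasm libraries of both.

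The level of miRNA as a whole moved with these differences. miRNA made up 24.7% to 30.4% of listed RPM in mESC chromatin and 78.3% to 86.9% in mESC cytoplasm, 53.6% to 71.9% and 95.1% to 95.8% in mNPC, and 73.3% to 75.7% and 87.9% to 89.2% in mCtx. Scaled to the listed miRNA reads, miR-181c-3p remained lower in chromatin than in cytoplasm, by differences of -0.70 for mESC, -0.47 for mNPC and -0.65 for mCtx (0.00221, 0.0475 and 0.00397 as limma adjusted p). miR-181c-5p then stood at 0.31 for mESC and 0.45 for mNPC, which did not pass, and at 0.67 for mCtx, which did (0.193, 0.0726 and 0.00486 as limma adjusted p). miR-181d-5p stood at 0.29, -0.19 and 0.11 and passed nowhere, and miR-181b-5p did not pass either. Its entries were at 0 and -0.01 in mNPC (limma adjusted p = 1.0 for both), and at -0.53 and -0.52 in mCtx (0.106 and 0.0517). miR-181a-1-3p was at -0.88 in mNPC and -0.85 in mCtx and did not pass (limma adjusted p = 0.071 and 0.0598).

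**Figure D5:**
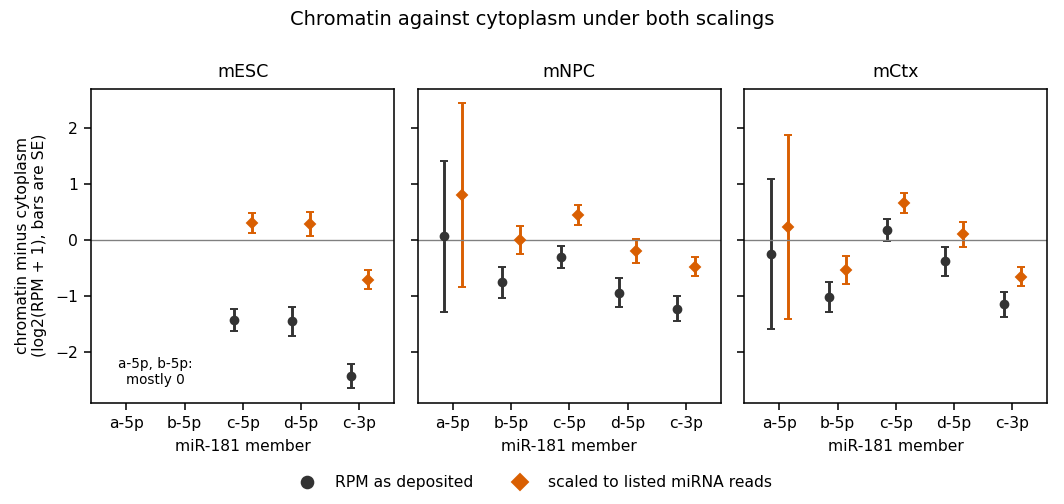
Difference between chromatin and cytoplasm (vertical axis, log2(RPM + 1), bars are SE of the limma fit) for members in each cell type (horizontal axis), with RPM as deposited and after scaling to the listed miRNA reads. miR-181c-3p lies below 0 in all 3 cell types under both scalings, while miR-181c-5p in mESC lies at -1.42 in deposited RPM and at 0.31 after scaling to miRNA reads.

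By entry, 3 of 10 tested members were lower in chromatin than in cytoplasm of mESC, where 29.5% of all entries were. In mNPC 6 of 10 were lower, against 19.5% of all entries, and in mCtx 6 of 10, against 23.9%. Between nucleoplasm and cytoplasm fewer members were called. Both copies of miR-181b-5p were higher in nucleoplasm of mESC (14% of all entries higher), miR-181a-1-3p and miR-181b-1-3p were lower in mNPC (6.11% of all entries lower), and miR-181c-5p was higher in mCtx (13.5% of all entries higher). The mESC pair rests on 70.82 to 202.4 RPM against libraries at 0, the call of miR-181a-1-3p was lost without mNPC nucleoplasm replicate 1 or 3 or mNPC cytoplasm replicate 2 or 3 (limma adjusted p up to 0.126), and that of miR-181c-5p without mCtx cytoplasm replicate 1 (limma adjusted p = 0.0981) and at -1.06 under centring. Chromatin was lower than nucleoplasm in 7 of 10 members in mESC (30.9% of all entries lower), 4 of 10 in mNPC (10.9% lower) and 6 of 10 in mCtx (17.2% lower). In mNPC these were both copies of miR-181b-5p, miR-181c-3p and miR-181c-5p, with differences of -0.59 to -0.91, and in mCtx both copies of miR-181b-5p and all tested 3p arms. In mESC they included both copies of miR-181a-5p, listed in 1 of 3 chromatin libraries, and of miR-181b-5p, listed in 0 of 3. Among the alternatives the miR-181b-5p differences there shrank to as little as -0.13 and -0.40 (limma adjusted p up to 0.522 and 0.101). In mCtx nucleoplasm miR-181a-2-3p had at most 42.53 RPM and miR-181b-1-3p at most 31.16 RPM, beside chromatin floors of 19.41 to 25.11 RPM. Both differences reached 0.00 among the alternatives. Calls were lost in mNPC without chromatin or nucleoplasm replicate 2 for miR-181c-5p (limma adjusted p up to 0.148) or replicate 3 for the chromosome 1 entry of miR-181b-5p (up to 0.0543). In mCtx they were lost without any one of the 6 chromatin and nucleoplasm libraries for the chromosome 1 entry of miR-181b-5p (limma adjusted p up to 0.103), without nucleoplasm replicate 3 for its chromosome 2 entry (0.0506), without replicate 1 of either fraction for miR-181c-3p (up to 0.0739), and without replicate 1 or 2 of either fraction or mNPC cytoplasm replicate 2 or 3 for miR-181a-1-3p (up to 0.202). Over these 9 comparisons 34 calls were of lower levels, and 15 were when libraries were scaled to their miRNA reads. That scaling moved the calls of all entries as well. In chromatin minus cytoplasm, the higher share of all called entries went from 45.8% to 64.4% in mESC, from 49.7% to 65.5% in mNPC and from 45.9% to 52.9% in mCtx.

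Ratios between members add what no scaling can change. miR-181a-5p exceeded miR-181b-5p by more in chromatin than in cytoplasm, by a log2 difference of 0.79 over mNPC and mCtx without overlap in either, and by more in nucleoplasm than in cytoplasm, by 0.46 (exact permutation adjusted p = 0.011 for both). Without replicate 1 of mCtx cytoplasm these were 0.66 and 0.33 (exact permutation adjusted p = 0.0123 and 0.035). With libraries paired by replicate number, both calls were lost at an exact permutation adjusted p of 0.0597, where no p below 0.0312 is possible. For chromatin minus nucleoplasm the same log2 ratio differed by 0.33 (exact permutation adjusted p = 0.011). That call was lost in 4 of 27 tests that left out 1 library, and with the pairing. For miR-181c-5p over miR-181d-5p the chromatin minus cytoplasm difference was 0.41 and not past the threshold (adjusted p = 0.14 by exact permutation).

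The chromatin minus cytoplasm difference itself was compared between the cell types. In mNPC against mESC 2 of 10 members had a higher difference, as 18.9% of all entries did, and 2 a lower one, as 11.9% did. These were miR-181c-3p at 1.21, miR-181c-5p at 1.12, miR-181a-1-3p at -1.62 and miR-181b-1-3p at -6.27 (limma adjusted p of 0.00504, 0.00409, 0.0192 and 0.00726). The last pair stood at 0 in all mESC libraries, so their values repeat the mNPC difference, and that of miR-181a-1-3p did not pass without mNPC chromatin replicate 3 (limma adjusted p = 0.0558) and was 0.94 under centring. Scaled to miRNA reads, miR-181c-3p was at 0.23, miR-181c-5p at 0.14 and miR-181a-1-3p at -0.88, and none of them passed (limma adjusted p of 0.552, 0.774 and 0.218). Among the alternatives the limma adjusted p of miR-181b-1-3p reached 0.238. In mCtx against mNPC 0 of 10 members were called by limma, where 17.3% of all entries were, and 1 member, miR-181a-2-3p at -3.27, lay under 0.05 before adjustment (limma adjusted p = 0.0658).

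The family was set beside a list of microRNAs known from neural tissue (miR-9, miR-124, miR-125, miR-128, let-7 and others), of which 55 of 59 entries were tested. In mNPC against mESC 28, 31 and 32 of these entries were higher in chromatin, nucleoplasm and cytoplasm, and 1, 5 and 2 were lower. Same-named copies were counted separately. Of all 851 tested entries 15.9%, 12.8% and 14.1% were higher and 29%, 35.8% and 27.5% lower. In mCtx against mNPC 18, 20 and 19 of the list entries were higher and 2, 2 and 6 were lower, with medians of 0.60, 0.58 and 0.26, beside members' medians of 0, 0.17 and -0.26. There 16%, 23.5% and 21.5% of all tested entries were higher and 11.9%, 10.3% and 10.8% lower. The names outside the family whose group means followed miR-181a-5p most closely, among names listed in at least 18 libraries and over 9 group means, were miR-125b-5p (Pearson's r = 0.99), miR-486b-5p and miR-486a-5p (0.984 each), let-7c-5p and let-7g-5p (0.978 each). These correlations describe 9 points that share libraries and the contrast of stem cells with neural cells. miR-125b-5p had group means of 0 to 35.04 RPM in mESC, 3711 to 6133 RPM in mNPC and 10498 to 26434 RPM in mCtx.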

How the data were processed

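The authors deposited one table of 1013 small RNA entries in RPM (reads scaled to one common library size), from single reads of 100 bp, per the labels' protocols. Not given in the sources used here were the aligner, the genome build and the rule for reads with several matches. The coordinates match GRCm38. Depth is unknown. With the lowest value of a library taken as 10 reads, 86.7% of low values of names with a single copy were whole reads within 0.02, and 41.1% of those of names with 2 copies were whole, with 39.9% halfway between whole reads. Counts were not recovered.

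Entries had to reach 1 RPM in 3 or more libraries, which left 851, and were fitted on log2(RPM + 1) with limma 3.58.1 in R 4.3.3, with 9 group means, an intensity trend, robust variances and 18 residual degrees of freedom. p-values were adjusted by Benjamini-Hochberg over 851 entries in each of 20 contrasts. A fold change on this scale understates the change of low entries only where they are listed in every library compared. Where an entry is not listed in some libraries, its fold change depends on the pseudocount and the library floor, and can be too large. For miR-181a-2-3p in mCtx minus mNPC chromatin the difference was -5.18, against -0.89 with all values below the highest library floor set to that floor. Ratios within a library were tested by exact permutation, two-sided, within strata. Fits were tested on simulated data. Python 3.11.15, numpy 2.4.6, pandas 2.3.3 and matplotlib 3.10.9 were used.

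The members and lists were chosen with earlier results of these data known. Every member was described. Other names were the 5 with the highest Pearson's r to miR-181a-5p over group means, and those of the neural list. Alternatives were other pseudocounts, filters, scalings and left-out libraries. Libraries were not paired by replicate number in the main tests, which does not exclude shared cultures.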

Additional observations from a re-analysis of the deposited data

Results flagged for a closer look

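The difference between chromatin and cytoplasm on the log2(RPM + 1) scale was not the same in mNPC as in mESC for 4 of 10 tested members, by a limma test of the difference itself. It was higher for 2 of them, as for 18.9% of all 851 tested entries, and lower for 2, as for 11.9%. With 10 members, these counts do not set the members apart from all entries. mNPC minus mESC was 1.21 for miR-181c-3p and 1.12 for miR-181c-5p, with limma adjusted p-values of 0.00504 and 0.00409. It was -1.62 for miR-181a-1-3p and -6.27 for miR-181b-1-3p, with limma adjusted p-values of 0.0192 and 0.00726. Both of these stood at 0 in every mESC library, so their values repeat the mNPC difference. miR-181a-1-3p was 0.94 under centring and did not pass without mNPC chromatin replicate 3 (limma adjusted p = 0.0558). For miR-181b-1-3p the limma adjusted p reached 0.238 among the alternatives. The miRNA share of listed RPM was 53.6% to 71.9% in mNPC chromatin and 24.7% to 30.4% in mESC chromatin, and scaled to miRNA reads the miR-181c values were 0.23 and 0.14 and did not pass.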

How the results depend on the processing

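Over 9 cell type comparisons 48 member calls were higher and 12 lower, over 9 fraction comparisons 3 and 34, and over both tests between cell types of the fraction difference 2 and 2. Each comparison tested 10 members. Of all 851 tested entries, 12.8% to 23.5% were higher and 10.3% to 35.8% lower by cell type comparison. In fraction comparisons with a lower member, 6.11% to 30.9% of all entries were lower. Scaling alternatives changed the calls of all entries too, so these totals describe the members alone. With all arms and genomic copies of a member summed, fewer entries were tested. Calls were then 16 higher between cell types, 1 higher and 14 lower between fractions, and 1 higher and 0 lower in the last tests. Higher calls between fractions were 5 with a pseudocount of 10, 1 with a common floor and 0 under centring. Scaled to miRNA reads, 15 calls between fractions were lower and 0 fraction differences were higher. Scaled to the reads outside miR-181a-5p, 8 calls between cell types were lower. Centring gave 0 and 0 fraction differences, and the common floor 4 lower ones. Leaving out 1 library gave 46 to 49 and 11 to 14 calls between cell types, 2 to 5 and 31 to 36 between fractions, and 2 to 4 and 1 to 4 fraction differences. The 5 came without replicate 1 of mESC chromatin or cytoplasm, the 4 without replicate 1 of mESC chromatin (higher) or replicate 1 or 3 of mESC nucleoplasm (lower), and the 1 without mNPC chromatin replicate 3. The miR-181c arm ratio of chromatin over nucleoplasm then ranged from 0.19 to 0.33 (exact permutation adjusted p of 0.0025 to 0.0585). Under centring, miR-181a-5p in mCtx minus mNPC was -2.13, -2.96 and -1.11 in chromatin, nucleoplasm and cytoplasm, and miR-181c-5p -1.92, -3.05 and -1.69. miR-181d-5p in mNPC minus mESC was 3.09, 3.24 and 0.02, and 0.09 in mCtx minus mESC chromatin. miR-181c-5p in mNPC minus mESC was 4.16 in nucleoplasm and 0.23 in cytoplasm, miR-181c-3p in mCtx minus mESC cytoplasm -0.26, miR-181c-5p in nucleoplasm minus cytoplasm of mCtx -1.06, and the fraction difference of miR-181a-1-3p 0.94. Scaled to miRNA reads, miR-181c-5p was -0.43 in mCtx minus mESC chromatin, 0.31 in chromatin minus cytoplasm of mESC, and 0.02 and 0.14 in chromatin minus nucleoplasm of mESC and mNPC, and miR-181d-5p was 0.29 in chromatin minus cytoplasm of mESC. The cause of these moves was not tested. Ratios within a library do not depend on scaling. Deviations of libraries with the same replicate number correlated at -0.12 to 0.187 between fractions and -0.076 to 0.096 between cell types, with 8 of 27 and 0 of 27 pairs over 0.1, and since not every pair was, the libraries were treated as unpaired. The medians were 0.051 and 0.013, and such correlations cannot exclude pairing. Between fractions they ran from -0.003 to 0.187 in mESC, from 0 to 0.184 in mNPC and from -0.12 to 0.179 in mCtx. Whether fractions share cultures is not known. With a replicate block, calls were 47 and 12 between cell types, 3 and 34 between fractions and 2 and 3 in fraction differences, and the block within a cell type gave 5 higher and 34 lower calls between fractions. All 6 miR-181c arm ratio calls passed with the block. Between cell types the block treats the fractions as independent, so it cannot answer for cultures that fractions share. Of the other 12 calls by exact permutation 7 were lost, at exact permutation adjusted p-values of 0.0597 for the 3 differences of miR-181a-5p over miR-181b-5p between fractions, for miR-181c-5p over miR-181d-5p in mNPC minus mESC and for miR-181a-1-3p over miR-181a-2-3p in mCtx minus mNPC, and 0.0938 for both differences of miR-181a-5p over its 3p arms between fractions. Over 2 strata the block allows 64 assignments and no p below 0.0312. Adding hairpin reads to each arm was not run, since no family hairpin is listed. Values under 5.16 to 59.07 RPM stand at 0, which limits the 3p arms.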
